A study of Mus musculus with 24 samples.

Results

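A set of 7 genes for subunits of the GABA-A receptor was followed through RNA sequencing of the mouse dentate gyrus: Gabra2, Gabra3, Gabra4, Gabra5, Gabrb1, Gabrb2 and Gabrd. They were chosen by name, and each of the 7 had a row among the 26667 genes of the count table. All 7 passed the filter on low counts that left 18286 genes to test, and the lowest count of any of them in a library was 866. The 24 libraries fall into 5 groups. Wild-type (WT) mice were C57BL6/J animals that received neither treatment (n = 5). APP/PS1 mice, which carry transgenes used to model the amyloid plaques of Alzheimer's disease, formed the other 4 groups: a control group without drug or wheel (n = 5), a group given BCI-838 at 5 mg/kg by mouth each day for 1 month (n = 4), a group with free access to a running wheel for 1 month (n = 5), and a group given both (n = 5). BCI-838 is a prodrug of an antagonist of the group II metabotropic glutamate receptors. Of age, sex and the promoter that drives the transgenes nothing is stated in the labels, and a wild-type group given either treatment was not analysed here.

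The GABA-A receptor is a chloride channel of 5 subunits that opens when it binds GABA, the main inhibitory transmitter of the brain. Most receptors combine alpha and beta subunits with either a gamma or a delta subunit, and the alpha subunit largely sets where the receptor sits and how it responds to drugs. Receptors with a gamma subunit and the alpha-2 or alpha-3 subunit gather at synapses and pass brief currents. In dentate granule neurons the delta subunit pairs with alpha-4 in receptors outside synapses, which pass a steady tonic current and respond to neurosteroids. The alpha-5 subunit is abundant in hippocampal pyramidal neurons, where it also carries tonic current. Beta subunits help to form the GABA binding site and carry sites for phosphorylation.

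Total counts ran from 48656360 to 64632882 per library. All 10 granule neuron markers were detected in every library, with summed levels of 899.7 to 2214 CPM (counts scaled to library size), and 11 measured markers of CA pyramidal neurons summed to 460.6 to 1626 CPM, so the libraries held RNA of the neighbouring CA fields as well. A choroid plexus transcript, Ttr, exceeded 100 CPM in 4 libraries, namely replicates 2, 4 and 5 of the APP/PS1 controls and replicate 5 of the group given both. WT replicate 2 had the highest score on a list of thalamic markers, 6.91 as a mean log2 CPM. Transcription factors of the dorsal midbrain had mean log2 CPM of 3.25 to 4.22 in the 4 BCI-838 libraries and -0.94 to 3.80 in the APP/PS1 controls. Of those 6 factors, Pax7 was at 0 in 5 libraries, Gata3 in 3 and Sox14 in 4. In tissue of mixed cells, fewer cells of a type and less RNA per cell cannot be told apart.

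Gabra5 and Gabrb2 are the members with the lowest unadjusted p values, so the 250 bases before a start site of each are shown. RefSeq promoters on GRCm38.p6 were matched for 6 of the 7 members, all but Gabrd. Capitals mark motifs found on either strand: the GC box (GGGCGG), the TATA box (TATAAA), the cyclic AMP response element core (TGACGTCA), the E-box (CACGTG) and the CCAAT box (CCAAT).
Gabra5, chr7:57510060-57510309, minus strand: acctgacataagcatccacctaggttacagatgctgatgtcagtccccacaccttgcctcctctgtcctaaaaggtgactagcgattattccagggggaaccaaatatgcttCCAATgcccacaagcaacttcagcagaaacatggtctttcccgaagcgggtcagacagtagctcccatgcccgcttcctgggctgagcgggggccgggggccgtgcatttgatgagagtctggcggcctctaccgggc
Gabrb2, chr11:42420190-42420439, plus strand, the most upstream of 3 listed starts: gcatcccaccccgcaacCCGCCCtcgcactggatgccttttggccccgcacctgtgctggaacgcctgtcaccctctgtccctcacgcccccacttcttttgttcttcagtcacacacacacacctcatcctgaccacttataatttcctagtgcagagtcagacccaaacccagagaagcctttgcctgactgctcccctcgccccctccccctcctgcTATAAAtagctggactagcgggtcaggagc
In GENCODE M21 the Gabrb2 gene starts further upstream, at 42419757, so its window lies inside the annotated gene, though it overlaps no annotated exon. The Gabra5 window held 1 CCAAT box, and the Gabrb2 window held 1 GC box and 1 TATA box. Among 32841 promoters of the same length, 33.9% held a CCAAT box, 32.8% a GC box, 12.4% a TATA box, 6.02% an E-box and 1.55% the response element core. GC content was 56.4% for Gabra5 and 58.8% for Gabrb2.

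The family was compared by level in WT tissue as CPM per kilobase of annotated exon, which allows for gene length. Gabrb2 was the highest of the members at 55.5 ± 12.4 (SD, n = 5). Gabra5 followed at 47.6 ± 11.0, and the ranges of the 2 over the libraries overlapped. Gabra4 reached 26.2 ± 12.2, Gabrd 18.3 ± 6.75 and Gabra3 16.6 ± 6.40, and the 3 overlapped. Gabra2 at 5.93 ± 0.93 and Gabrb1 at 2.20 ± 0.63 were the lowest of the members. The other genes with less than 1 CPM per kilobase were Gabrr2, Gabrg3, Gabrr1, Gabrq, Gabre, Gabrr3 and Gabra6, the last a subunit gene of the cerebellum, and Gabrp had no count in WT tissue. The choice of length matters for 3 members: with the longest transcript in place of all exons Gabrb2 was at 88.5, Gabra4 at 38.8 and Gabra2 at 7.74 CPM per kilobase.

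**Figure D1:**
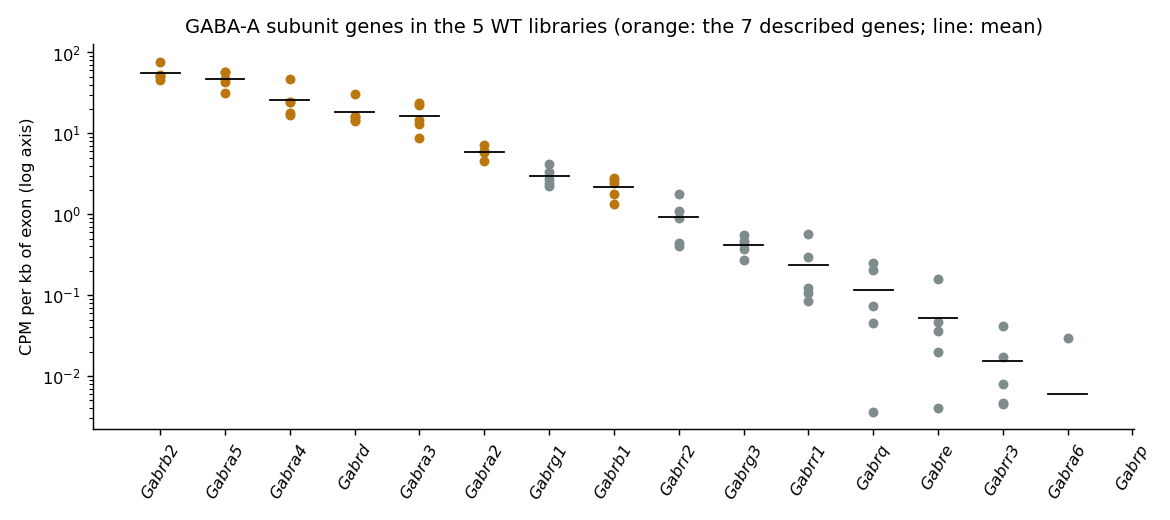
Levels of 16 GABA-A subunit genes in the 5 WT libraries, in CPM per kilobase of exon on a log axis; each point is a library, each line the mean, and values of 0 are not drawn. The 7 members (orange) run from Gabrb2 at 55.5 down to Gabrb1 at 2.20.

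None of the 7 members passed an adjusted p of 0.05 in any of 10 comparisons with edgeR, and 16 of the 70 member tests had an unadjusted p under 0.05. Over all genes the share with such a p ran from 2.76% for control against WT to 17.6% for both against wheel. DESeq2 called 1 of the 70 and voom called 4, which are named below. The background was also low. Of all genes tested, edgeR called 0.0109% for APP/PS1 control against WT, 0% for BCI-838 against control, 0.00547% for the wheel against control and 0% for both against control. It called 0% for both against wheel, 0% for both against BCI-838 and 0% for the interaction of drug and wheel. Against WT it called 0.0328% with BCI-838, 0.0109% with the wheel and 0.0164% with both.

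A second, plainer reading is whether every library of a group lay above or below every library of the other. This held for 4 of 63 member comparisons: Gabrb2 and Gabrb1 were higher in all BCI-838 libraries than in all APP/PS1 controls, Gabra5 was higher in all libraries given both than in all given BCI-838, and Gabrd was lower in all BCI-838 libraries than in all WT libraries. The background share of genes without overlap was 4.71% for BCI-838 against control, 8.24% for both against BCI-838 and 3.62% for BCI-838 against WT. In the comparisons where no member separated it was 0.312% for control against WT, 0.585% for the wheel, 1.01% for both against control, 1.4% for both against wheel, 0.875% for the wheel against WT and 0.541% for both against WT.

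**Figure D2:**
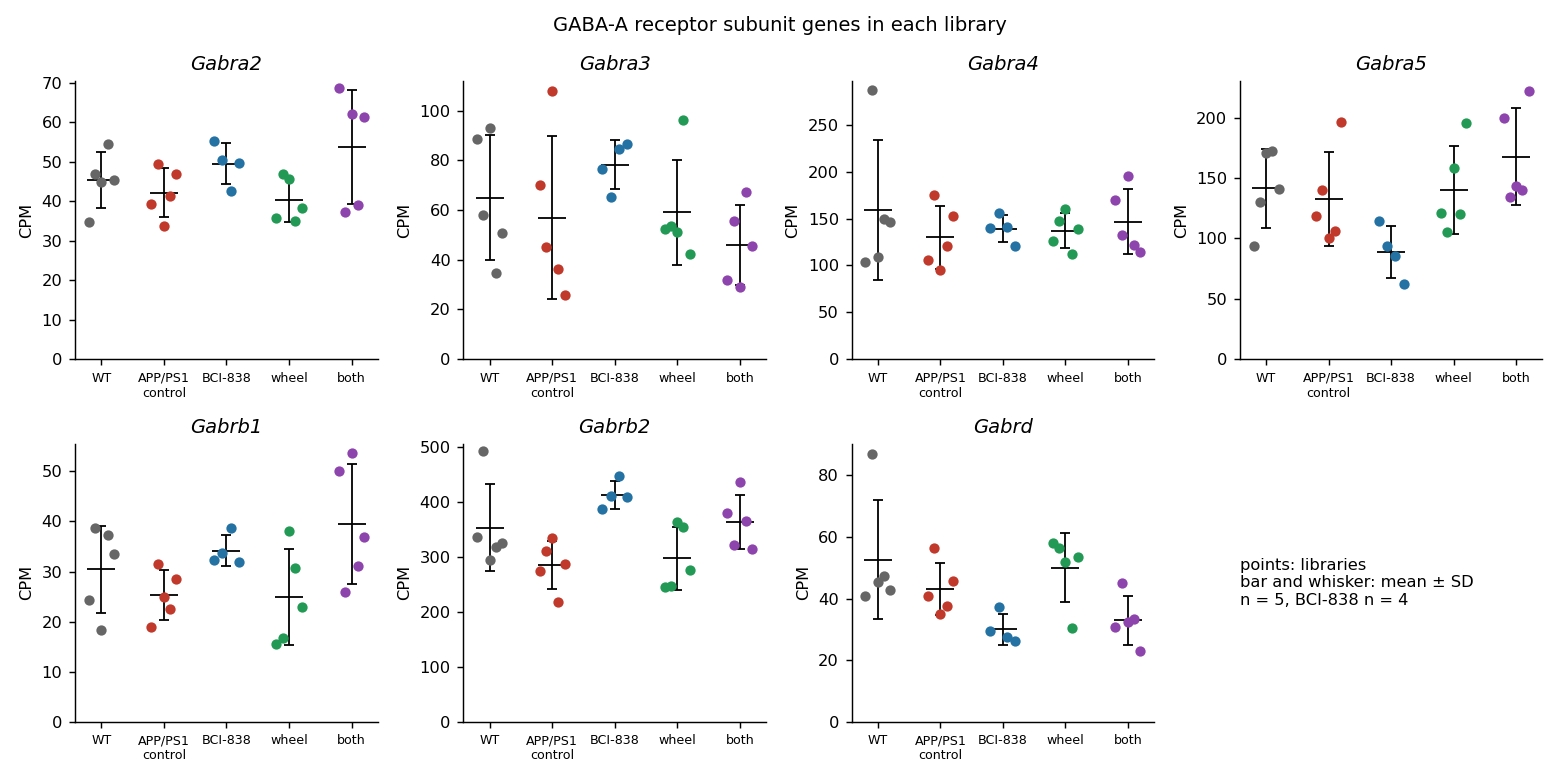
CPM of the 7 subunit genes in each of the 24 libraries (points), with the mean and SD of each group (bar and whisker). Gabra5 is lowest in the BCI-838 group at 89.0 CPM on average, Gabrb2 is highest there at 413 CPM, and Gabrd is lowest in the groups with the drug at 30.1 and 32.9 CPM.

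Gabra2 encodes an alpha subunit of synaptic receptors, also placed at the axon initial segment. It lies on the minus strand at chr5:70957597-71095849 (GRCm38, the assembly that mm10 names). The WT libraries measured 34.7, 46.9, 44.9, 54.6 and 45.5 CPM, and the APP/PS1 controls 39.3, 49.3, 33.7, 41.2 and 46.9. BCI-838 libraries measured 55.1, 50.5, 42.6 and 49.7 CPM, wheel libraries 35.6, 46.8, 45.5, 35.0 and 38.1, and libraries with both 68.7, 37.1, 62.1, 39.1 and 61.2. The group with both was split, with replicates 1, 3 and 5 above all others of the study and replicates 2 and 4 in the range of the controls. The log2 fold change of both against control was 0.35 ± 0.16 (SE; adjusted p of 0.440), and that of both against wheel 0.42 ± 0.16 (adjusted p = 0.187).

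Gabra3 encodes the alpha subunit of synapses that is typical of brainstem, midbrain and thalamic reticular neurons. It lies at chrX:72432681-72656848, minus strand. It was the most variable member, with a coefficient of variation of 38.5% over the 24 libraries. WT libraries measured 88.7, 58.2, 93.0, 34.5 and 50.7 CPM, and APP/PS1 controls 69.9, 45.1, 107.8, 36.4 and 25.8, so the control group held both the lowest and the highest library of the study. The BCI-838 libraries were close together at 76.6, 65.1, 84.6 and 86.7 CPM. Wheel libraries measured 52.5, 53.6, 51.05, 96.1 and 42.3 CPM, and those with both 32.02, 55.6, 29.1, 67.4 and 45.7. Both against BCI-838 gave -0.77 ± 0.35 on the log2 scale (SE, adjusted p = 0.326), which was -0.27 once the dorsal midbrain score was a covariate. The ranges of these groups overlapped, as replicate 4 of the group with both, at 67.4 CPM, lay above BCI-838 replicate 2, at 65.1.

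Gabra4, the alpha partner of the delta subunit in granule neurons, lies at chr5:71569749-71658308 on the minus strand, head to head with Gabrb1. Their exons overlap by 46 bases, and nothing in the sources used here says whether counting used strand. WT libraries measured 103.8, 287.1, 109.5, 149.6 and 146.7 CPM, and WT replicate 2 was the highest of the study. The APP/PS1 controls measured 105.8, 175.6, 95.2, 121.2 and 153.2 CPM. BCI-838 libraries measured 140.2, 156.3, 140.8 and 120.4 CPM, wheel libraries 126.4, 147.8, 160.7, 112.3 and 138.8, and libraries with both 169.8, 132.9, 196.0, 121.6 and 114.1. All 5 groups overlapped, their means ran only from 130.2 to 159.3 CPM, and Gabra4 had no unadjusted p under 0.05 in any comparison.

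Gabrd encodes the delta subunit, which keeps receptors outside synapses. It lies at chr4:155384980-155398112, minus strand. Its WT libraries measured 40.7, 87.1, 45.4, 47.5 and 42.7 CPM, and its APP/PS1 controls 41.0, 56.3, 34.9, 37.7 and 45.8. With BCI-838 the libraries measured 29.3, 37.4, 27.4 and 26.1 CPM, with the wheel 58.0, 56.4, 51.9, 30.6 and 53.4, and with both 30.8, 45.0, 32.4, 33.4 and 22.9. The BCI-838 libraries overlapped the controls, whose replicate 3 was below the highest of them, and replicate 4 of the wheel group lay among them too. Replicate 2 of the group with both was above 3 of the 5 controls. In the order of group means, WT, wheel and control did not differ beyond their spread, and the next step, from control at 43.1 ± 8.41 to both at 32.9 ± 7.93 CPM, exceeded the larger SD.

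The Gabrd log2 fold change of BCI-838 against control was -0.52 ± 0.23 (SE, adjusted p = 0.431). It was -0.34 without the 4 libraries high in Ttr, which leaves 2 controls. Both against wheel gave -0.60 ± 0.21 (adjusted p = 0.170), and voom called this difference at an adjusted p of 0.0498, in a fit that called 5.41% of all genes. Against WT, BCI-838 gave -0.81 ± 0.23 (adjusted p = 0.313), and both gave -0.68 ± 0.21 (adjusted p = 0.590), the latter -0.43 without WT replicate 2. The astrocyte list ran the opposite way in the BCI-838 libraries, with a mean log2 CPM of 8.46 to 8.62 against 8.14 to 8.37 in the controls and all 8 genes detected. In the group with both it overlapped the controls, at 8.23 to 8.45. Its part in the differences was not tested.

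Gabra5 encodes the alpha subunit of extrasynaptic receptors in pyramidal neurons. It lies at chr7:57407672-57510059, minus strand, and 148 of its exon bases, 4.98% of the total, overlap Gm9962 on the other strand. WT libraries measured 93.4, 129.9, 171.0, 172.0 and 140.8 CPM, and APP/PS1 controls 118.4, 139.9, 100.3, 106.0 and 196.4. BCI-838 libraries were the lowest group, at 114.3, 93.3, 85.7 and 62.4 CPM. Wheel libraries measured 120.9, 105.0, 158.4, 120.2 and 195.2 CPM, and those with both 199.8, 133.8, 143.2, 139.7 and 222.3. The lowest library with both lay above the highest with BCI-838 alone. Group means ran in the order both, WT, wheel, control and BCI-838, and the first 4 did not differ beyond their spread, while the step from control (132.2 ± 39.0) to BCI-838 (89.0 ± 21.4) exceeded the larger SD.

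Both against BCI-838 gave the largest Gabra5 difference, 0.92 ± 0.24 on the log2 scale (SE, edgeR adjusted p = 0.185), higher in 5 of 5 libraries than in any of the 4 with the drug alone. DESeq2 called it at an adjusted p of 0.0266 and voom at 0.0261, while these fits called 1.49% and 4.79% of all genes in the same comparison. BCI-838 against control gave -0.57 ± 0.23 (adjusted p = 0.395), and BCI-838 against WT gave -0.67 ± 0.23 (adjusted p = 0.456). The interaction, the drug difference in runners minus that in mice without a wheel, was 0.83 ± 0.32 (adjusted p = 0.434). With the dorsal midbrain score as a covariate the 4 values were 0.39, -0.24, -0.35 and 0.29 in the same order. With the CA list minus the granule list as a covariate they were 0.83, -0.60, -0.64 and 0.76. Without the libraries high in Ttr, BCI-838 against control gave -0.30 and the interaction 0.44.

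The beta subunit genes were the 2 that separated BCI-838 from control. Gabrb2, whose product is a beta subunit of many synaptic receptors, lies at chr11:42419757-42629028 on the plus strand. WT libraries measured 336.6, 491.7, 294.1, 318.0 and 325.1 CPM, and APP/PS1 controls 273.2, 310.8, 333.6, 218.3 and 286.0. BCI-838 libraries measured 386.4, 409.6, 447.6 and 408.5 CPM, all above the highest control. Wheel libraries measured 245.3, 247.5, 363.0, 353.6 and 275.6 CPM, and libraries with both 379.4, 321.1, 436.2, 364.6 and 314.4. BCI-838 against control gave a log2 difference of 0.54 ± 0.15 (SE, edgeR adjusted p = 0.210), and voom called it at an adjusted p of 0.0260 in a fit that called 2.32% of all genes. Both against control gave 0.35 ± 0.14 (adjusted p = 0.393). Control against WT gave -0.31 ± 0.14 (adjusted p = 1.00), and -0.16 without WT replicate 2.

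Gabrb1, a beta subunit gene expressed at a low level in hippocampal neurons and also in astrocytes, lies at chr5:71658113-72149037, plus strand. WT libraries measured 24.4, 38.6, 18.4, 37.2 and 33.5 CPM, and controls 19.0, 31.6, 24.95, 22.5 and 28.6. BCI-838 libraries measured 32.4, 33.6, 38.8 and 31.97 CPM, just above the highest control. Wheel libraries measured 15.6, 16.7, 38.1, 30.8 and 23.0 CPM, and libraries with both 49.98, 25.9, 53.6, 31.0 and 36.9. The log2 fold change of BCI-838 against control was 0.43 ± 0.26 (SE, edgeR adjusted p = 0.594), and that of both against control 0.64 ± 0.24 (adjusted p = 0.375). Both against wheel gave 0.67 ± 0.25 (edgeR adjusted p = 0.183), which voom called at an adjusted p of 0.0423.

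**Figure D3:**
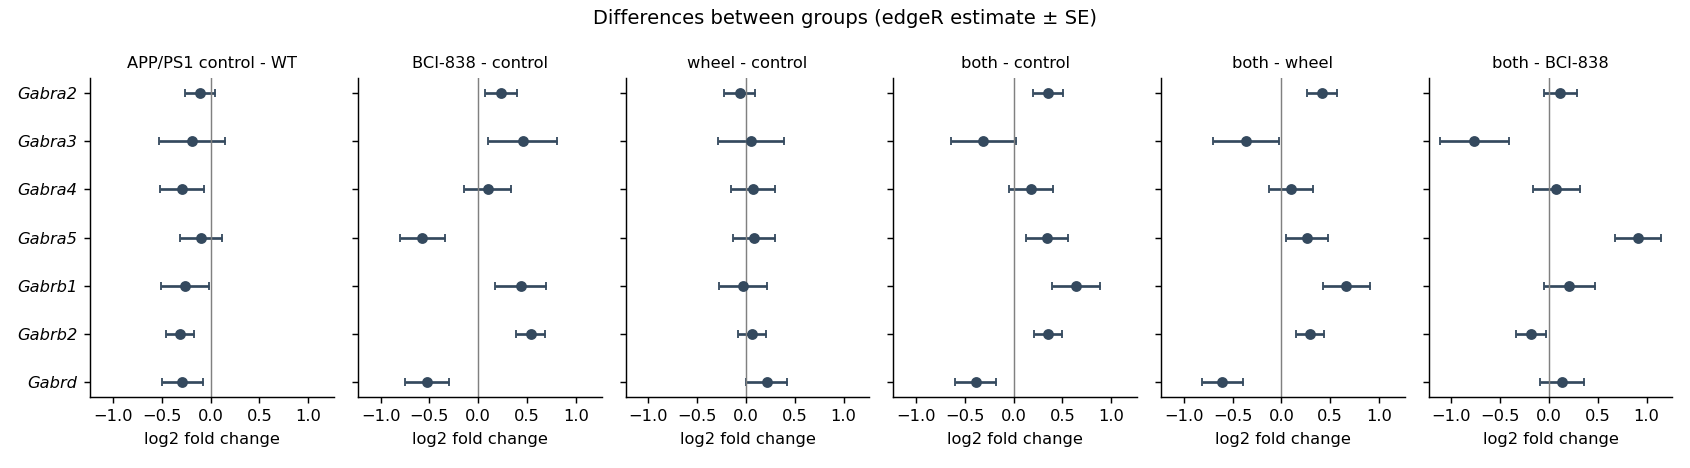
Log2 fold changes of the 7 members with SE in 6 comparisons, as estimated by edgeR over all 24 libraries. With the wheel alone the values run from -0.07 to 0.21, and the widest value is Gabra5 for both against BCI-838, 0.92.

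With the running wheel alone against control, no member had an unadjusted p under 0.05. Log2 fold changes ran from -0.07 to 0.21, with a median of 0.06 against 0.01 over all genes. Their SE ran from 0.14 for Gabrb2 to 0.33 for Gabra3, so moderate changes could have been missed. The sign of 6 of the 7 turned under some alternative. In APP/PS1 controls against WT all 7 members had values below 0, from -0.31 to -0.10 with a median of -0.26, where 52.6% of all genes were below 0. Of these, Gabra4 was at 0.04 without WT replicate 2, and Gabra3 was at 0.45 without the libraries high in Ttr. With BCI-838 5 of the 7 had values above 0, where 50.1% of all genes did. The median was 0.23, against 0.00 over all genes. The sign of 2 of the 5 turned under some alternative, among them Gabra3, at -0.18 without the libraries high in Ttr, and Gabra4. The unadjusted p was under 0.05 for 3 members there, where 10.2% of all genes had one. Each comparison with the controls shares the same 5 control libraries.

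The rest of the GABA system was read from lists of genes. Of 12 other subunit genes, 9 were tested and none passed in any comparison. The genes of a list were measured in the same libraries, so their directions are not independent. With BCI-838 against control, 7 of these 9 had values above 0, where 50.1% of all genes did. Their median log2 fold change was 0.42, and 0.19 with the dorsal midbrain covariate. In both against BCI-838, 8 of the 9 had values below 0, where 51.3% of all genes did. The median was -0.82, and -0.13 with that covariate. Gabrg1, a gamma subunit gene also found in glia, gave -0.82 ± 0.23 (adjusted p = 0.185) there, and -0.20 with the dorsal midbrain covariate. DESeq2 called it at an adjusted p of 0.0417 and voom at 0.0312.

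Of 31 genes of the inhibitory postsynapse, 29 were tested and none passed in edgeR. In both against BCI-838 23 of the 29 had values above 0, with a median of 0.08, where 48.7% of all genes were above 0. Mdga1, which binds neuroligin and limits synapse formation, gave the lowest p at 1.20 ± 0.29 (SE, adjusted p = 0.185), and 0.62 with the dorsal midbrain covariate. Its libraries measured 66.1 to 172.8 CPM with both and 36.4 to 56.3 with BCI-838. DESeq2 called Mdga1 at an adjusted p of 0.0137 and voom at 0.0261. Shisa7, an auxiliary subunit of the GABA-A receptor, gave 0.70 ± 0.19 (adjusted p = 0.185), and 0.39 with that covariate. DESeq2 called it at 0.0375 and voom at 0.0310. In BCI-838 against control Shisa7 gave -0.51 ± 0.19 (adjusted p = 0.365), and -0.32 with the covariate.

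Of 16 genes for GABA synthesis, transport and chloride balance, 15 were tested and none passed in edgeR. With BCI-838 against control, 14 of the 15 had values above 0, with a median of 0.22, where 50.1% of all genes were above 0. The median was 0.11 with the dorsal midbrain covariate and 0.09 without the libraries high in Ttr. Gad2 and Gad1 encode the enzymes that make GABA. Gad2 gave 0.90 ± 0.31 (SE, adjusted p = 0.311) and was called by voom at 0.0315, with 290.5 to 409.1 CPM against 132.0 to 272.8 in the controls. Its value was 0.51 with the dorsal midbrain covariate and 0.55 without the libraries high in Ttr. Gad1 gave 0.45 ± 0.18 (adjusted p = 0.387), and 0.25 and 0.17 under the same 2 settings. In both against BCI-838 13 of the 15 were below 0, as were 51.3% of all genes. With the covariate 8 of the 15 were above 0. Slc6a11, an astrocyte GABA transporter, gave -1.08 ± 0.38 (adjusted p = 0.213), called by voom at 0.0493, and -0.23 with the covariate. The 6 genes of the GABA-B receptor list had none called, with medians of -0.06 for BCI-838 against control, 0.21 without the libraries high in Ttr, and 0.20 for both against BCI-838.

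Several members varied with or against the cell type and tissue lists across the 24 libraries, and each pair of values comes from the same library. Gabra5 correlated at r = 0.78 with the CA pyramidal list and at -0.79 with the dorsal midbrain list. After the group means were removed the values were 0.76 and -0.68. Gabra4 correlated at 0.63 with the granule list and Gabra3 at -0.70, and at 0.72 and -0.76 after that step. Gabrd correlated at -0.64 with the astrocyte list and Gabrb2 at 0.52, which became -0.55 and 0.25. With the interneuron list Gabrd gave -0.58 and Gabra4 -0.59, which became -0.55 and -0.71. The CA list had mean log2 CPM of 4.62 to 5.36 in the BCI-838 libraries and 5.06 to 6.55 in those with both, and the dorsal midbrain list 3.25 to 4.22 and -2.23 to 2.83. The part of tissue makeup in the Gabra5 differences was examined only through the 2 covariates given above, which gave different values.

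**Figure D4:**
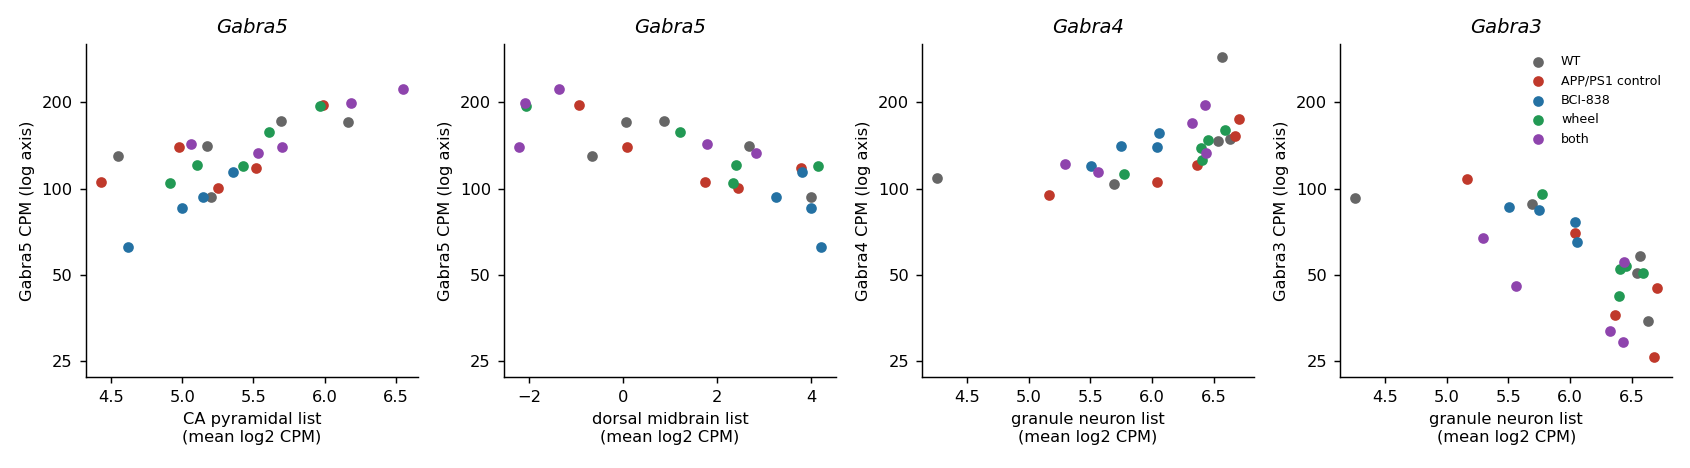
CPM of Gabra5, Gabra4 and Gabra3 (log axis) against the mean log2 CPM of a marker list in the 24 libraries, coloured by group. Gabra5 follows the CA pyramidal list (r = 0.78) and runs against the dorsal midbrain list (r = -0.79), Gabra4 follows the granule list (r = 0.63), and Gabra3 runs against it (r = -0.70).

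Among themselves the members formed no single block. Gabrb1 and Gabrb2 varied together most, at r = 0.77 over the 24 libraries, and Gabra2 with Gabrb1 at 0.65. Gabra3 varied against Gabra5 at -0.62 and against Gabra2 at -0.53. Gabra4 and Gabrd gave 0.49, and 0.71 after the group means were removed. For these 2 the ratio of levels was examined after their values had been seen, and so without a test. Gabrd per kilobase divided by Gabra4 per kilobase was 0.412 to 0.506 in the BCI-838 libraries, below every WT (0.615 to 0.878), control (0.633 to 0.820) and wheel library (0.576 to 0.971). The group with both covered 0.350 to 0.716 and was split, with replicates 1, 3 and 5 at 0.384, 0.350 and 0.424 and replicates 2 and 4 at 0.716 and 0.581.

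**Figure D5:**
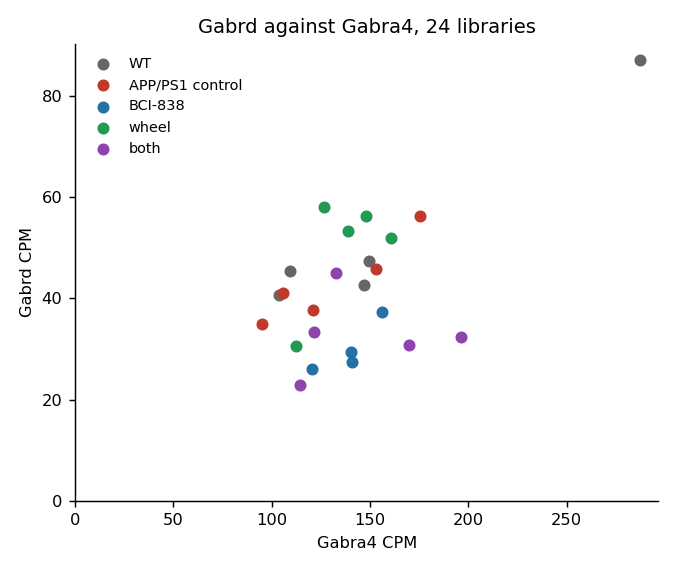
Gabrd CPM against Gabra4 CPM in the 24 libraries, coloured by group. The 4 BCI-838 libraries have 26.1 to 37.4 CPM of Gabrd at 120.4 to 156.3 CPM of Gabra4, and WT replicate 2 stands alone at 87.1 and 287.1 CPM.

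The genes most like each member were taken as those with the highest correlation of log2 CPM over 24 libraries, among 15182 named genes. For Gabra5 these were Zfp238, Nell2 and Camk2a, at r = 0.97, 0.97 and 0.96. For Gabrb1 they were Akap11, Aff4 and Ranbp2, at 0.97, 0.96 and 0.95, and for Gabra3 they were Dpy19l1, Rcan2 and Kcnk3, each at 0.93. Gabrb2 was most like Rb1cc1, Impad1 and Crbn, at 0.88, 0.88 and 0.87. Gabra2 was most like Sbf2, at 0.85, Gabra4 was most like Prmt6, at 0.85, and Gabrd had Prpf38a at 0.83. After the group means were removed the Gabrd value was 0.69, and Prpf38a ranked 44 among all genes.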

How the data were processed

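Total RNA of the dentate gyrus was sequenced, and read counts per gene were deposited by the authors as 1 table of whole numbers. STAR, HTSeq and DESeq were run on build mm10, per the submitters' processing notes. Their versions and the strand setting are not given in the sources used. The second deposited table, of normalised values, was not used. Labels place each library in its group, and the libraries of a group are described as mice.

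edgeR 4.0.16 in R 4.3.3 kept genes with filterByExpr (minimum count 10, minimum total 15), scaled them by TMM and fitted a mean for each group to all 24 libraries together. Contrasts took its quasi-likelihood F test, with Benjamini-Hochberg adjustment over 18286 genes and a call at 0.05. SE is the log2 fold change over the square root of F. CPM uses library size times TMM factor. List scores are mean log2 CPM with a prior count of 2. Lengths and coordinates came from GENCODE M21. The fit was tested on simulated data.

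Alternatives were DESeq size factors, no filter, 1 CPM in 5 libraries, DESeq2 1.42.0, voom with quality weights (limma 3.58.1), a replicate block, the compared libraries alone, a covariate of the CA list minus the granule list, and leaving out each library. The dorsal midbrain covariate and leaving out the 4 libraries over 100 CPM of Ttr were chosen after seeing the data. Members and gene lists were chosen with earlier results of these data known. All 7 members are named. From the other lists at most the 2 genes of lowest p per comparison are named, and for likeness the 3 or fewer most correlated genes. Some genes that these rules select are left out of the text and figures.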

Additional observations from a re-analysis of the deposited data

Results flagged for a closer look

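In 5 of 35 group and gene combinations, 1 library lay far from the other libraries of its group. In groups of 5 libraries this meant a gap to the nearest one of over 0.71 of the group's range. A higher limit held for the smaller BCI-838 group, where no library was flagged. Chance gives such a library in about 1 of 20 groups. WT replicate 2 was the outlying library for 3 genes, with Gabra4 at 287 CPM (next highest 149.6), Gabrb2 at 492 CPM (next highest 336.6) and Gabrd at 87.1 CPM (next highest 47.5). This library also had the highest thalamus list score, and its part in these values was not tested. Wheel replicate 4 was the outlying library for Gabra3, at 96.1 CPM with the next highest at 53.6, and for Gabrd, at 30.6 CPM with the next lowest at 51.9.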

How the results depend on the processing

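The 16 member differences with an unadjusted p under 0.05 kept their direction under all 34 alternatives each, 544 combinations in all, and 5 of these passed the threshold. These 16 were picked for a low p in the same data. Most alternatives left out 1 library, often outside the comparison, so the shared direction is not independent support. With DESeq2 the number of members called was 1 for both against BCI-838. With voom it was 1 for BCI-838 against control, 2 for both against wheel and 1 for both against BCI-838. Leaving out single libraries called 0 members in every comparison. Of the 54 other member values, 26 changed sign under some alternative.

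The number of genes called over the whole table depended more on the tool. DESeq2 called 170 genes for BCI-838 against control, 364 for both against wheel and 256 for both against BCI-838, and voom called 425, 989 and 876, where edgeR called 0. Without wheel replicate 3 edgeR called 400 genes for both against wheel, and in a fit of the compared libraries alone 111 for both against BCI-838. Elsewhere DESeq2 called 14 genes for control against WT, 61 for the wheel, 82 for both against control, 77 for the interaction, and 75, 6 and 11 for BCI-838, wheel and both against WT, where edgeR called 2, 1, 0, 0, 6, 2 and 3. Voom called 176 for BCI-838 against WT and 461 for the wheel against WT. Without replicate 2 of the group with both edgeR called 83 genes for both against wheel, and for the wheel against control it called 27 without control replicate 1. The cause was not tested.

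Replicate numbers did not pair the libraries. Over 46 same-numbered pairs the median correlation of deviations was -0.0055, 10 pairs exceeded 0.1, and 6 of 24 libraries correlated best with their own number. With the replicate block 0 members were called in each comparison, and the Gabra5 log2 fold change of both against BCI-838 was 0.80 (adjusted p = 0.345). Every member had at least 866 counts in each library. What limits the number of calls was not tested.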
